A study of Homo sapiens with 4 samples.

Results

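The genes described here are 10 inflammatory cytokine, chemokine and prostaglandin genes (IL6, IL11, LIF, IL1A, IL1B, CXCL1, CXCL2, CXCL3, CXCL8 and PTGS2), chosen by name out of 20163 protein-coding genes annotated on GRCh37. All 10 were found in the annotation. H3K4me3 was measured by native ChIP-Seq in MDA-MB-231, a human line established from triple-negative breast cancer, in untreated cells, in cells treated with 1 μM Tat-SID and in cells treated with 2.5 μM Tat-SID, beside a library of input DNA, with 1 library for each. Tat-SID is a decoy peptide that joins a cell-penetrating stretch of HIV-1 Tat to the SIN3 interaction domain of MAD and blocks the PAH2 domain of the SIN3 scaffold. The treatment lasted 3 days, and the control cells received no peptide. The data are lists of regions called by the authors as reduced or increased against the same untreated library, and a gene was counted when 3 kb or less separated such a region from its gene start or from the transcription start site (TSS) of any of its transcripts.

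The lists held 141 reduced regions at 1 μM, 2063 reduced regions at 2.5 μM and 3 increased regions at 2.5 μM. They give the position of a region but no read number, so they show neither the size of a reduction nor the depth of each library, and 1 library per condition allows no test between conditions. A gene without a region did not pass the authors' threshold, which does not show that its H3K4me3 was unchanged, or that it carried the mark in untreated cells. In a bulk library, fewer cells with the mark and less of it per cell cannot be told apart. The lists give no expression level against which the cell type could be checked. Of 5 breast epithelial and mesenchymal markers, VIM and CD44 had reduced regions at 2.5 μM, and KRT18 (52.6 kb from the nearest region), KRT8 (54.4 kb) and EPCAM (167 kb) had none within 3 kb, nor had the 4 leukocyte and 2 fibroblast markers examined.

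H3K4me3 marks nucleosomes around the start sites of active and inducible genes. The 10 genes encode secreted signals, or the enzyme that makes one, that NF-κB and AP-1 typically induce in stressed or cytokine-stimulated cells. IL-6, IL-11 and LIF act through receptors that share the IL6ST (gp130) chain and activate JAK kinases and STAT3, IL-1α and IL-1β act through MYD88 on NF-κB, and CXCL1, CXCL2, CXCL3 and CXCL8 attract neutrophils through CXCR2. PTGS2 (COX-2) catalyses the committed step of prostaglandin synthesis. MDA-MB-231 cells are known to secrete IL-6 and CXCL8 (IL-8) in culture.

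At 2.5 μM Tat-SID, 6 of the 10 genes had a region in the reduced list, namely the 4 chemokine genes CXCL1, CXCL2, CXCL3 and CXCL8, the IL-1α gene IL1A, and PTGS2. Under the same rule 10.8% of protein-coding genes had a reduced region (2178 of 20163, exact Clopper-Pearson 95% confidence interval 10.4% to 11.2%, which covers counting error over genes only), and 5.31% of the 64449 annotated genes of any type. The 10 genes were chosen with earlier results of these data known, so this comparison is descriptive only. IL1B and the 3 genes of the IL-6 family, IL6, IL11 and LIF, had no reduced region. All 6 genes with a region had a TSS inside it, at a distance of 0, while the nearest gene outside the 3 kb window, IL1B, was 48.9 kb from a region, so that no gene lay close to the limit of the window. A TSS inside the region was usual, as 10.6% of protein-coding genes had a region over a TSS, against 10.8% within 3 kb. At 1 μM none of the 10 genes had a reduced region, against 0.675% of protein-coding genes (136 of 20163) and 0.360% of all annotated genes. The share of genes with a region at 2.5 μM was not even across chromosomes. It was 19.4% on chromosome 4, which holds the 4 chemokine genes, 13.6% on chromosome 2 (IL1A, IL1B), 12.3% on chromosome 1 (PTGS2), 9.97% on chromosome 7 (IL6), 2.91% on chromosome 19 (IL11) and 2.22% on chromosome 22 (LIF).

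The 4 chemokine genes each had a region of their own that contained the gene from end to end. CXCL8, the neutrophil chemoattractant IL-8, lies on the plus strand of chromosome 4 from 74606236 to 74609433, and its region, chr4:74605651-74610349, reached from 585 bp upstream of the gene start to 916 bp past the gene end. All 4 exons of the CXCL8 canonical transcript and all 4 of its annotated TSS lay inside this region of 4699 bp. CXCL1 (GROα) lies on the plus strand from 74735110 to 74737025, and its region of 5149 bp, chr4:74733751-74738899, reached from 1359 bp upstream to 1874 bp past the end. CXCL3 (GROγ) lies on the minus strand from 74902306 to 74904524, and its region of 5199 bp, chr4:74900851-74906049, reached from 1525 bp upstream of the start to 1455 bp past the end. CXCL2 (GROβ) lies on the minus strand from 74962757 to 74964913, with a region of 5049 bp, chr4:74961001-74966049, from 1136 bp upstream to 1756 bp past the end.

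CXCL8 thus had the shortest upstream part and the shortest part past the end, and CXCL1, CXCL2 and CXCL3 resembled each other in length. The canonical transcripts of the 4 genes have 4 exons each, and exons made up 20.7% of the region at CXCL3, 22.1% at CXCL2, 22.8% at CXCL1 and 34.9% at CXCL8. In the CXCL8 region 32.0% of the bases were intronic, against 14.4% in the CXCL1 region. A region that holds the whole gene is uncommon among all genes but usual for short ones. Of the 1853 protein-coding genes whose start lay inside a region at 2.5 μM, 108 (5.83%) were wholly covered, and among the 76 of them no longer than CXCL8 (3198 bp) the number was 66 (86.8%). Over the 1853 genes the median extent was 1744 bp upstream and 3200 bp downstream of the gene start, and the chemokine regions extended 585 to 1525 bp upstream and 3673 to 4113 bp downstream. All 4 therefore lay further towards the 3′ side of the gene start than that median position.

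**Figure D1:**
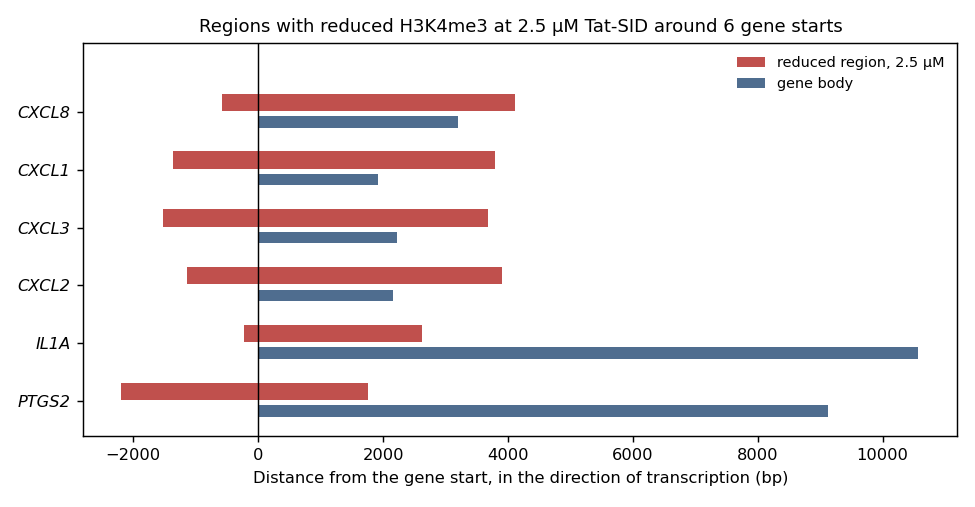
Regions from the 2.5 μM Tat-SID reduced list (red) and gene bodies (blue) for the 6 genes with a region, placed by distance from the gene start in bp, with transcription running to the right. The 4 chemokine genes lie wholly inside their regions, whereas the regions of IL1A and PTGS2 cover 24.8% and 19.2% of the gene.

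The promoter sequences of the 4 chemokine genes are shown because all 4 starts lay inside a reduced region, and because CXCL1, CXCL2 and CXCL3 are recent copies of one another. Each is the GRCh37 sequence on the strand of the gene, 5′ to 3′, from 250 bases before the start of the canonical transcript to 50 bases from that start on, with matches to the NF-κB consensus in capitals. The windows are chr4:74734860-74735159 (plus strand), chr4:74964863-74965162 (minus strand), chr4:74904357-74904656 (minus strand) and chr4:74606036-74606335 (plus strand).
CXCL1: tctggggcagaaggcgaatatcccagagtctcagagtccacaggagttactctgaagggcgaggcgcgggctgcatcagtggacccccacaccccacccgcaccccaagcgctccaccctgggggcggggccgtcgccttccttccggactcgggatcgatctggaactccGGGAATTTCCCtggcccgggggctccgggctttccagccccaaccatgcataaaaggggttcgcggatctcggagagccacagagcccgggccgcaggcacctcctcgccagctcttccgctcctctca
CXCL2: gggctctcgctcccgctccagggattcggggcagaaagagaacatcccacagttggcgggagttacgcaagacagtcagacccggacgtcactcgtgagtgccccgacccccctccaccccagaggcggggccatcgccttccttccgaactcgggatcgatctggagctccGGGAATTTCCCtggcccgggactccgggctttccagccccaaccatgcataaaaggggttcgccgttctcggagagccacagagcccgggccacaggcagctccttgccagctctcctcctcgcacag
CXCL3: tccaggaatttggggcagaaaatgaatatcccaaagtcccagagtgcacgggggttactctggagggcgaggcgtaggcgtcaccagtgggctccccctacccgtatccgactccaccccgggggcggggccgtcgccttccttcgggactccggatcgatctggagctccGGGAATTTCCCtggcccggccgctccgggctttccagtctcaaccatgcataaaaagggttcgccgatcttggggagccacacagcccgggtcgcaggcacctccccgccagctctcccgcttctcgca
CXCL8: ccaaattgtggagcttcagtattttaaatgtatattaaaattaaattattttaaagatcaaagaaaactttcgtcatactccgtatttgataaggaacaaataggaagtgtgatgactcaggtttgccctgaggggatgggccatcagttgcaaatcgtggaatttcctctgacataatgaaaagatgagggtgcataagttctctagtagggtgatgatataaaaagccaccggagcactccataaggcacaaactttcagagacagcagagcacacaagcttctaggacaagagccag

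In CXCL1, CXCL2 and CXCL3 the same 10 bases, GGGAATTTCC, matched the NF-κB consensus, beginning 79, 78 and 79 bases before the start, respectively, and a second match on the opposite strand overlapped the first by all but 1 base. No exact match to this consensus (GGGRNWYYCC) lay in the CXCL8 window. The window held TGGAATTTCC, which differs from the consensus only at its first base, and near matches were not counted. It also held an AP-1 motif (TGANTCA, searched on both strands) from 137 to 131 bases before the start. A TATAAA motif lay from 31 to 26 bases before the start. Of the aligned bases, 85.9% were identical between the CXCL1 and CXCL2 windows, 87.0% between CXCL1 and CXCL3 and 83.6% between CXCL2 and CXCL3, whereas identity with CXCL8 was 54.1% to 58.5%. Over the windows around the gene start of all 10 genes, the NF-κB consensus was found at CXCL1, CXCL2 and CXCL3. Among 20098 protein-coding promoters of the same length 6.40% held it, and among the 2178 with a reduced region 6.75%. Around canonical starts, 5.43% of promoters held the AP-1 motif and 9.82% the TATAAA motif. Among promoters with a reduced region the shares were 4.68% and 8.22%, respectively. Among the 10 genes the AP-1 motif was found around canonical starts at IL11, IL1A and CXCL8, and the TATAAA motif at LIF, IL1A, CXCL8 and PTGS2. The TATAAA match began 239 bases before the start at IL1A, against 29 at LIF, 31 at CXCL8 and 32 at PTGS2. A C/EBP motif (TTGCNNAA) was found at IL6, IL1B, CXCL2 and PTGS2. Genes without a reduced region thus also held these motifs (IL11, LIF, IL6 and IL1B). A match of letters is a description and not evidence of binding.

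Because CXCL1, CXCL2 and CXCL3 are alike, reads from one could be placed on another, since the authors' alignment kept reads with several possible places. Of all 70-base windows of the CXCL1 region, 5.77% had a further place within 600 kb around the cluster at up to 2 mismatches. The share was 7.91% for the CXCL2 region, 3.43% for the CXCL3 region and 0% for the CXCL8 region. The overlap was largest between CXCL1 and CXCL2, where 4.69% of the CXCL1 windows were found again. All 394 such windows of the CXCL2 region touched the gene itself. Most windows of each region thus had no second place in the cluster at the length of the alignment seed, and the part of these reads in the calls was not tested.

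The 4 regions were the only reduced regions in the 359 kb between the starts of CXCL8 and CXCL2. They were separated by 123 kb, 162 kb and 55.0 kb and covered 5.12% of this span. The other chemokine genes in the span, which belong to the same CXC family, had no reduced region within 10 kb. PF4V1 was 14.7 kb from the nearest region, CXCL6 30.8 kb, CXCL5 36.5 kb, PPBP 46.9 kb and PF4 53.1 kb, and in each case the nearest region was that of CXCL1 or CXCL3. Of the 20 annotated genes of any type in the span, 4 had a region. Beyond CXCL2 the next region began 55.9 kb from the end of the CXCL2 region, at an internal start of MTHFD2L, and on the other side of CXCL8 the next one was 479 kb away. A further transcript, the non-coding RNA ENSG00000289241, starts on the opposite strand inside the CXCL2 region and cannot be told apart from CXCL2 by position.

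**Figure D2:**
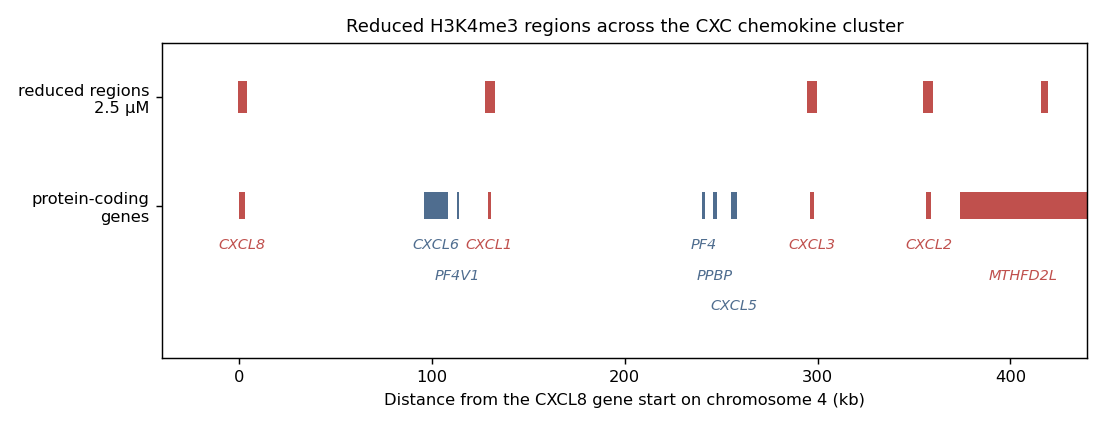
Reduced H3K4me3 regions at 2.5 μM Tat-SID (upper row) and protein-coding genes (lower row) by distance in kb from the CXCL8 gene start on chromosome 4. Genes in red have a TSS inside a region and genes in blue do not, and a readthrough gene over PF4 and PPBP is not drawn. CXCL8, CXCL1, CXCL3 and CXCL2 each have a separate region, while CXCL6, PF4V1, PF4, PPBP and CXCL5 have none.

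IL1A and IL1B encode the agonists of the IL-1 receptor and are neighbours on the minus strand of chromosome 2. IL1A lies from 113531502 to 113542070, and the region at its start, chr2:113539451-113542299, was the shortest of the 6 at 2849 bp, shorter than 93.7% of the regions at 2.5 μM. It began 229 bp upstream of the gene start, ran 2619 bp into the gene and held exons 1 to 3 of the 7 exons of the canonical transcript, with 86.5% of its bases in introns. IL1B lies from 113587328 to 113594393, and the nearest region to any of its 5 TSS was that of IL1A, 48.9 kb away. Of protein-coding genes, 17.3% were at least as close to a region as IL1B. The 7 other IL-1 family genes of this cluster, IL37, IL36G, IL36A, IL36B, IL36RN, IL1F10 and IL1RN, were 126 kb to 315 kb from the same region. CKAP2L, a mitotic spindle gene on the other side of IL1A, had a region of its own, chr2:113518351-113523649, of 5299 bp.

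The IL1A start lacked a match to the NF-κB consensus in the window of 250 bases before and 50 after it, and held the AP-1 motif TGANTCA both 12 to 6 bases before the start and 39 to 45 bases after it. The sequence is shown as the start with the shortest region (chr2:113542021-113542320, minus strand), with no capitals because no NF-κB match was found.
IL1A: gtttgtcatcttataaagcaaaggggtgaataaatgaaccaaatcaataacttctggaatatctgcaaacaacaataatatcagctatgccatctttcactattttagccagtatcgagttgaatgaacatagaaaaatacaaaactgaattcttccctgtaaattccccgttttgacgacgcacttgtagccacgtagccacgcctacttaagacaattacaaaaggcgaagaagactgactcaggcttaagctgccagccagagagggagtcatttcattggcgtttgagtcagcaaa

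PTGS2 lies on the minus strand of chromosome 1 from 186640923 to 186650054. Its region of 3949 bp, chr1:186648301-186652249, reached 2195 bp upstream and 1753 bp downstream of the gene start and held 3 of its 4 annotated TSS. It was the only one of the 6 regions with more sequence upstream than downstream of the gene start. Exons 1 and 2 and part of exon 3 of the 10 exons of the canonical transcript lay inside it, and 68.2% of its bases lay upstream of that transcript. PACERR, a non-coding RNA gene transcribed in the opposite direction from the PTGS2 promoter, also starts inside the region, so the reduction cannot be given to either gene alone. In the window around the canonical start a C/EBP motif (TTGCNNAA) lay 133 to 126 bases before the start, on the opposite strand, and a TATAAA motif 32 to 27 bases before it.

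None of the 3 IL-6 family genes had a reduced region at 2.5 μM. IL6 lies on the plus strand of chromosome 7 from 22765503 to 22771621, and the nearest region to any of its 7 TSS, chr7:22893501-22896949, was 127 kb away over the small nucleolar RNA host gene SNHG26. The start of the IL6 gene in the annotation lies upstream of its canonical start, and measured from the gene start the distance was 128 kb. LIF lies on the minus strand of chromosome 22 from 30636442 to 30642748, with its nearest region 1.44 Mb away over XBP1. IL11 lies on the minus strand of chromosome 19 from 55875750 to 55881831, with its nearest region 3.80 Mb away over ZNF175. The median distance over all protein-coding genes was 380 kb. Of these genes, 27.5% were at least as close to a region as IL6, 83.1% as close as LIF and 94.7% as close as IL11.

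The IL6 promoter is shown beside those of the chemokine genes because it held the NF-κB consensus without a region in the list (chr7:22766569-22766868, plus strand, 250 bases before to 50 from the canonical start, match in capitals).
IL6: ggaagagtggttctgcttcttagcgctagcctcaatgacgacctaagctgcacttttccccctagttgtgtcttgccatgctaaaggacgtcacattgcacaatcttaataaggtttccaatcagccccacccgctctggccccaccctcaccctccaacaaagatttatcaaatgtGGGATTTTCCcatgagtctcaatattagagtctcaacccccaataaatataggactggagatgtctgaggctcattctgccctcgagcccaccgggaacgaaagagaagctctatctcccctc
The match, GGGATTTTCC, lay from 73 to 64 bases before the canonical start, and a C/EBP motif, found in 8.11% of promoters, from 155 to 148 bases before it. With canonical starts, 4 of the 10 genes held the NF-κB consensus (CXCL1, CXCL2, CXCL3 and IL6), of which 3 had a reduced region. It was held by 6.55% of all protein-coding promoters and by 6.29% of those with a reduced region. For the C/EBP motif the share among promoters with a reduced region was 7.99%. The CRE motif TGACGTCA was found in none of the 10 windows, around either start, and in 2.69% of all windows around canonical starts.

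At 1 μM Tat-SID the nearest reduced regions were far from all 10 genes. The nearest region was 6.02 Mb from CXCL2, 6.08 Mb from CXCL3, 6.25 Mb from CXCL1 and 6.38 Mb from CXCL8, in each case the same region, chr4:80988001-80995999. It was 3.47 Mb from IL6, 12.2 Mb from PTGS2 and 58.3 Mb from IL1A and IL1B. Chromosomes 19 and 22, which hold IL11 and LIF, had no region at this dose. Every reduction found at these genes was thus called at 2.5 μM and not at 1 μM. Since the lists do not give the depth of either treated library and the untreated library is shared, the calls do not show that the genes differed between the doses. None of the 3 regions with increased H3K4me3 at 2.5 μM lay on a chromosome that holds 1 of the 10 genes.

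The regions of the 4 chemokine genes lay between the quartiles of length of the list, and those of PTGS2 and IL1A below the lower quartile. The lengths of the 6 regions ran from 2849 to 5199 bp around a median of 4874 bp, against a median of 4949 bp and quartiles of 3999 and 6199 bp over the 2063 regions. In each of the 6 regions the listed gene was the only protein-coding gene with a TSS within 3 kb, as in 65.8% of all regions. The share of regions longer than that of the gene was 43.6% for CXCL3, 44.7% for CXCL1, 47.6% for CXCL2, 55.5% for CXCL8, 75.1% for PTGS2 and 93.7% for IL1A.

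Of the 10 genes, 2 had a CpG promoter over 1 kb on each side of the gene start, against 46.9% of 20098 protein-coding promoters. Over 500 bases on each side 4 of the 10 had one, and the share of all promoters was not computed for that width. Over 1 kb on each side of the gene start, CXCL2 (GC content 53.7%, ratio of observed to expected CpG 0.62) and CXCL3 (53.5%, 0.61) passed the limits of a CpG promoter, set at 50% for GC content and 0.6 for the ratio, by a small margin. CXCL1 (56.1%, 0.50) had the GC content but not the ratio, and PTGS2 (46.8%, 0.70) the ratio but not the GC content. CXCL8 (36.4%, 0.15), IL1B (45.3%, 0.14), IL1A (42.0%, 0.20) and IL6 (45.9%, 0.33) lay low in both measures, while LIF (62.0%, 0.49) and IL11 (67.7%, 0.54) were GC-rich with ratios below the limit. The median over 20098 protein-coding promoters was 55.0% and 0.61. A reduced region was found at 14.8% of CpG promoters and at 7.30% of the other promoters, and both listed genes with a CpG promoter had a region, while of the 8 without one 4 had a region (IL1A, CXCL1, CXCL8 and PTGS2). The genes with and without a region overlapped in both measures.

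**Figure D3:**
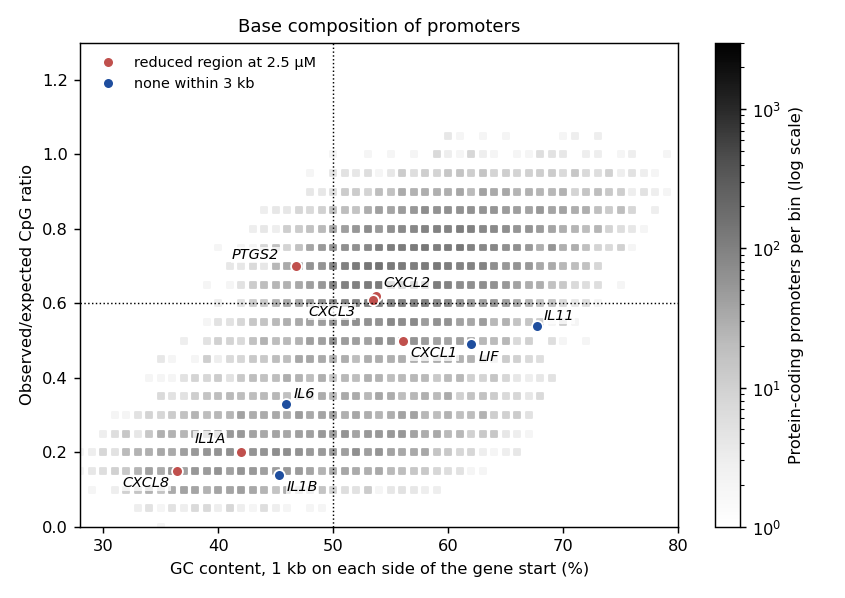
GC content (%) and ratio of observed to expected CpG over 1 kb on each side of the gene start, for protein-coding promoters (grey, number per bin on a log scale) and for the 6 genes with a reduced region at 2.5 μM Tat-SID (red) and the 4 without (blue). Dotted lines mark the limits of a CpG promoter, and CXCL2 and CXCL3 lie just inside them.

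The genes that carry or control these signals were examined in 11 further lists with 103 genes, all found in the annotation. These lists too were chosen with earlier results of these data known. At 2.5 μM, 14 of the 103 genes (13.6%) had a reduced region, against 10.8% of protein-coding genes, and at 1 μM none had. Among 15 receptor genes 3 had a region. These were IL6ST, the gp130 chain that IL-6, IL-11 and LIF receptors share, with a region of 6099 bp, OSMR, which pairs with gp130 for oncostatin M, with 5399 bp, and PTGER4, a prostaglandin E2 receptor, with 4349 bp. The other 12 receptor genes, among them the other receptor chains for IL-6, IL-11 and LIF, the IL-1 receptors and the CXCL8 receptors CXCR1 and CXCR2, had none. None of 9 genes of JAK-STAT3 signalling and none of 5 further IL-6 family ligand genes had a region.

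Each list below is short, and its count stands beside 10.8% of protein-coding genes under the same rule. Among 12 genes for NF-κB subunits and inhibitors 4 had a region. These were NFKB1, which encodes the p50 subunit and its precursor (5099 bp), REL, which encodes c-Rel (5349 bp), NFKBIZ, which encodes the nuclear cofactor IκBζ (5199 bp), and TNIP1, which encodes an A20-binding inhibitor (10399 bp). Among 12 genes between the IL-1 receptor and NF-κB, 2 had a region: MAP3K7, the kinase TAK1 (4149 bp), and its partner TAB2 (5149 bp). Of 5 genes for factors that control mRNA decay, 2 had a region, ZFP36L1 (10299 bp) and ZC3H12A, the RNase Regnase-1 that degrades IL6 mRNA (8999 bp). Of the 8 other prostaglandin genes only PTGES3, a cochaperone also described as a prostaglandin E synthase, had a region (5949 bp). Of 15 further cytokine and chemokine genes, the CCR6 ligand CCL20 (4049 bp) and the lymphoid cytokine IL7 (4599 bp) had one. None of 4 C/EBP genes, 9 other CXC chemokine genes of chromosome 4 or 9 other IL-1 family genes had a region.

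The regions of TAB2, NFKBIZ, TNIP1 and CCL20 lay over the starts of other transcripts and were 97324 bp, 20216 bp, 5489 bp and 9446 bp from the gene start, respectively. When only gene starts were counted, 10 of the 103 genes had a region, close to the 9.51% of protein-coding genes under that rule. Of the NF-κB subunit and inhibitor genes, only NFKB1 and REL then kept a region. MAP3K7 was the only gene between the IL-1 receptor and NF-κB that did. The 6 cytokine, chemokine and PTGS2 genes all kept their regions.

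**Figure D4:**
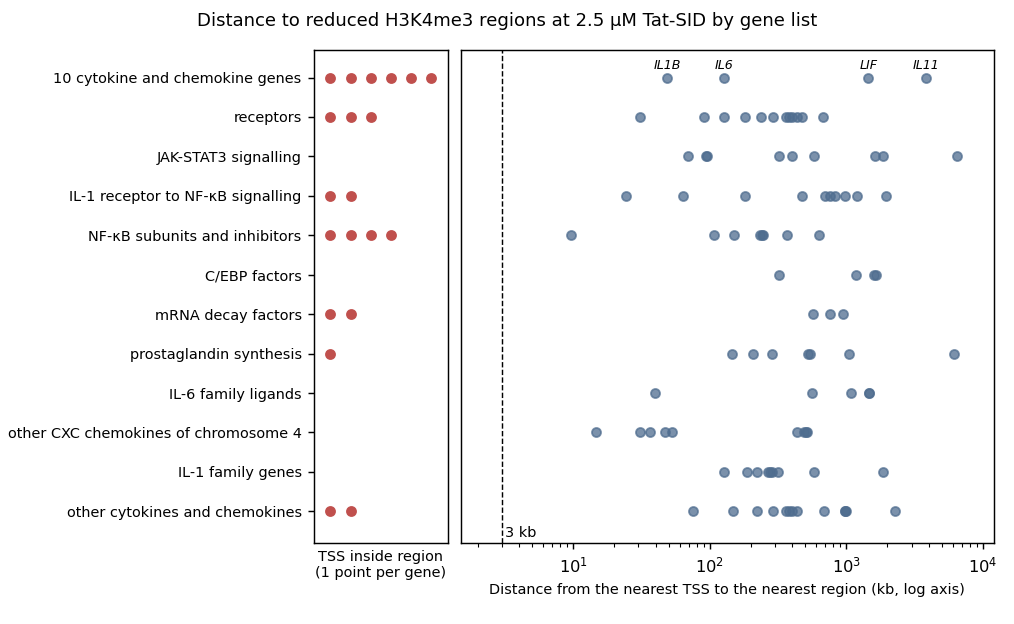
Distance in kb on a log axis from the nearest TSS of each gene to the nearest region of the 2.5 μM Tat-SID reduced list, for the 10 genes (top row) and the 11 further lists, with 1 point per gene and the dashed line at 3 kb. Red points in the left panel are genes with a TSS inside a region, 6 in the top row and 14 in the others, and no gene lies between 0 and 3 kb.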

How the data were processed

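Per the methods and the submitters' processing notes, the authors checked 100-nt single-end reads with FastQC (version 0.10.0), aligned them to hg19 with Bowtie (version 1.0.0) and called changed regions with SICER-df. The deposited lists hold chromosome, start and end, carry an FDR threshold of 1e-15 in their names, and give no score or read number, so depth and precision per region cannot be read from them, and library depths were not analysed here. The methods name a less strict threshold. BED starts were moved to count from 1, and no region ended beyond its GRCh37 chromosome. TSS came from GENCODE release 44 mapped to GRCh37. Sequences were read from GRCh37, and the NF-κB consensus and 4 further motifs were searched on both strands.

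The 10 genes and the lists were chosen with earlier results of these data known. Named genes were the 10 genes, genes at their regions and every list gene with a region, and distances for other genes of the clusters were added after the values were seen. Promoter and CpG windows around canonical starts were also added afterwards. No test was run, because each condition had 1 library. Region placement was tested on simulated data, with regions planted within or beyond 3 kb of 200 genes drawn from 20163. All 200 genes were correctly called as with or without a region. Alternatives were the TSS set, the window, a minimum length, merging, the overlap and the promoter window. Scripts ran in Python 3.11.15 with scipy 1.17.1, Biopython 1.88 and matplotlib 3.10.9.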

Additional observations from a re-analysis of the deposited data

How the results depend on the processing

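The number of listed genes with a reduced region at 2.5 μM, 6 of 10, was the same with gene starts only, with protein-coding transcripts only, with the region required to cover the TSS, with windows of 1 and 10 kb, with a minimum length of 1000 bp and after merging. It was 5 with a minimum length of 3000 bp, which removes the IL1A region by its length. Most of the other settings could not alter the count at 2.5 μM. All 6 gene starts lay inside a region, the shortest of these was 2849 bp, and IL1B, the next gene, was 48.9 kb from one. At 1 μM the number was 0 under each of these alternatives. The number of genes of the further lists with a region at 2.5 μM was 10 with gene starts only and 15 with a window of 10 kb. The share of protein-coding genes with a region was 9.51% at 2.5 μM and 0.496% at 1 μM with gene starts only, where fewer TSS are counted, and 11.6% at 2.5 μM with a window of 10 kb. The NF-κB consensus was found at 5 of the 10 genes with 500 bases before to 100 after the gene start, where 12.0% of all promoters held it, and at 5 with 1000 bases before, where 18.3% held it. The 2 genes added by the wider windows were IL11 and PTGS2. With 500 bases on each side of the gene start, 4 of the 10 genes had a CpG promoter, without a share of all promoters to set beside it. The overlap required between doses could not alter a count, since no listed gene had a region at 1 μM. Without values for single regions, no stricter FDR could be tried. No paired analysis was possible because there was only 1 library per condition. Depth limits all calls, and its effect was not tested.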
